A study of Homo sapiens with 12 samples.

Results

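CEP152 and 32 further genes of centrosome assembly were followed in HEL cells carrying hairpins against JAK2. The list of 33 genes was drawn up by function, with earlier results of these data known. CEP152 and CROCCP2 were instead chosen by their measured fall in these same arrays (knockdown minus control). Their lower levels after knockdown are therefore given as a description with no test. A gene counted as measured where the platform annotation gives it a probe set of its own. That held for 31 of the 33 genes, with 59 of the 22292 probe sets tested; CEP192 and TUBGCP6 had none under their own names, and CENPJ appears under its current RefSeq symbol, CPAP. Of the 31 genes, 14 had 1 probe set and 17 had 2 or more, up to 5.

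The centrosome organises microtubules. It holds a pair of centrioles joined by a linker and surrounded by pericentriolar matrix, which anchors gamma-tubulin complexes, and small granules called centriolar satellites move around it. CEP152 forms, with CEP63 and CEP57, a scaffold around the mother centriole that recruits the kinase PLK4, and PLK4 starts the growth of a new centriole through STIL, CENPJ and CEP135. In resting cells the mother centriole, through its appendages, becomes the base of the primary cilium.

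HEL is a human erythroleukaemia cell line whose JAK2 genes all carry the V617F mutation (JAK2V617F), so every group shares this allele. Lentiviruses in a pLKO vector with puromycin resistance delivered 1 of 4 constructs: the hairpins Jak2-9 and Jak2-10 against JAK2, a luciferase hairpin (Luc), or a GFP control that the labels name both as a vector and as a hairpin. Each group had 3 one-colour Affymetrix arrays, from Trizol RNA of which 20 ng was amplified linearly, and the sources used here do not give the time after infection. Replicates are numbered in the labels but not said to be separate cultures, so a p-value here speaks of differences among arrays that may be technical repeats. All levels below are log2 of the deposited intensity, in which a difference of 1 is a doubling; differences between groups are read within a probe set, and the brightness of probe sets is named only to tell them apart.

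The check of the hairpins came first. The brighter JAK2 probe set, 205842_s_at, was at 63.1% of control in both knockdown groups together (limma, adjusted p = 0.0026), at 59.3% with Jak2-9 (adjusted p = 0.00568) and at 67% with Jak2-10 (adjusted p = 0.0555). The dimmer JAK2 probe set, 205841_at, was at 60.1% (adjusted p = 0.0319), a call lost without any 1 of the 6 control arrays or of the 3 Jak2-10 arrays; the highest adjusted p over all alternatives was 0.162. All 9 measured erythroid and megakaryocytic markers of 11 listed lay above the median probe set, and HBG1 and HBG2 reached the top percentile. Among markers of other cell types, KRT18, DCN, PECAM1 and 1 lymphoid marker of 4 measured lay above the median, and no myeloid marker of 4 did. The summed intensity of the 5 epithelial markers ranged from 207 to 251 on control arrays, from 260 to 394 with Jak2-9 and from 207 to 273 with Jak2-10. KRT18 carried that difference, with log2 means of 7.11 (GFP), 7.18 (Luc), 7.84 (Jak2-9) and 7.22 (Jak2-10). EPCAM, KRT8, KRT19 and CDH1 averaged 4.22 to 4.80 in every group, and CDH1 was lowest with Jak2-9 (4.54). The part of this sum in the results was not tested. The Jak2-9 replicate 1 array stood apart: its lowest correlation with another array of its group was 0.985, against at least 0.995 within GFP, Luc and Jak2-10. On that array 592 probe sets were more than 2-fold away from the average of its 2 companions, against 0 to 36 on every other array. Knockdown versus control values of tested members that move by more than 1.5 times without this array are given without it too.

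The regions just upstream of CEP152, the member with the largest difference, and of CENPJ, the scaffold-group gene called with Jak2-9, are shown for their promoter motifs. Both are RefSeq windows of 300 bases on GRCh38.p14, from 250 bases before the annotated start to 50 bases after it, read on the minus strand, at chr15:48811020-48811319 for CEP152 and chr13:24922812-24923111 for CENPJ. Capitals mark exact matches to the motifs searched.
CEP152: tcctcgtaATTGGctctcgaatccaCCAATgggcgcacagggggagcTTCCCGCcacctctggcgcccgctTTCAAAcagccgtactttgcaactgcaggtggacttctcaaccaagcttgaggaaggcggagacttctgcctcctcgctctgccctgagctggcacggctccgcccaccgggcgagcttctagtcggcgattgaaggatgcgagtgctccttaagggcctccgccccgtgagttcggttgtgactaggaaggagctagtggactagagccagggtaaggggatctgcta
CENPJ: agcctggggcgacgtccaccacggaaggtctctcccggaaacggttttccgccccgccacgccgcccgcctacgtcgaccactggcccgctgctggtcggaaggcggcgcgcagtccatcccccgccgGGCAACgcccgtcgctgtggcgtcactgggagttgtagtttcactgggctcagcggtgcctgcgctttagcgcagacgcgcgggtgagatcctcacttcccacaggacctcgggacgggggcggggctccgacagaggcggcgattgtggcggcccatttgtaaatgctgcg

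In the CEP152 window the capitals are, counted from the start site with negative numbers before it, ATTGG at -242 and CCAAT at -225 (the CCAAT box on either strand), TTCCCGC at -203 (the reverse complement of the E2F-like motif GCGGGAA) and TTCAAA at -179 (the reverse complement of the cell cycle element CHR, TTTGAA). The CENPJ window holds 1 match, GGCAAC at -122, the reverse complement of GTTGCC, a core of the X-box that RFX factors read. Neither window holds TTCNNNGAA, the spaced motif of STAT factors, which says only that these letters are not in these windows. Windows were found for 27 of the 31 measured members, 35 windows in all because 7 genes had more than 1. The CHR (TTTGAA or TTCGAA) was in 8 of the 35 windows (22.9%), against 16.4% of all 35116 windows, and CCAAT in 15 (42.9%, against 34.6%). The CEP76 windows overlap each other, and their CHR matches, at 19 and -36, are the same site counted in each. The E2F-like motif was in 7 member windows (20%, against 6.55%), the X-box core in 9 (25.7%, against 12.2%) and the STAT motif in 3 (8.57%, against 7.66%). Both strands were searched, the CHR, E2F-like and STAT motifs can overlap one another, and member windows were richer in G and C (median 63.7%) than all windows (58.7%). A match is a description of the letters, not a bound site.

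CEP152 was lower with both hairpins, on both of its probe sets. On the brighter probe set, 215170_s_at, GFP arrays read 6.81, 6.32 and 6.45 and Luc arrays 7.22, 7.36 and 6.98. Jak2-10 arrays read 5.74, 5.66 and 5.71 on it, and Jak2-9 arrays 4.89, 5.08 and 5.13. No knockdown array reached a control array, and the groups followed the order Luc, GFP, Jak2-10, Jak2-9 from high to low with no overlap between neighbours. Knockdown minus control was -1.49 (SE 0.09, 6 arrays against 6), or 35.7% of control with a 95% interval of 31% to 41%. It ranked 33 of 22292 probe sets by size of fall. Jak2-9 was at 28.3% of control (-1.82, SE 0.11) and Jak2-10 at 45% (-1.15, SE 0.11). These values chose the gene and carry no test, and the interval makes no allowance for that choice. The arrays read bulk RNA of a culture, so less CEP152 RNA in each cell and fewer cells holding it cannot be told apart.

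The size of the CEP152 difference moved with the control used, because the controls also differed from each other. Against GFP, the difference on the brighter probe set was -1.49 with Jak2-9 and -0.82 with Jak2-10; against Luc it was -2.15 and -1.48. The choice of CEP152 did not use the difference within either pair of groups, so both were tested. Luc exceeded GFP by 0.66 (SE 0.13, 95% interval 0.38 to 0.94), higher in 3 of 3 arrays, with an unadjusted limma p of 0.000207 and an adjusted p of 0.42. Jak2-10 exceeded Jak2-9 by 0.67 (SE 0.13, interval 0.39 to 0.96), higher in 3 of 3 arrays, with an unadjusted limma p of 0.000177 and an adjusted p of 0.571. Neither difference passed the threshold of 0.05 over all probe sets, although both intervals lie above 0. For background, limma called 0 of 22292 probe sets (0%) in Jak2-10 minus Jak2-9, where 1914 had an unadjusted p under 0.05, and 0 (0%) in Luc minus GFP, where 558 did.

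The dimmer CEP152 probe set, 215882_at, gave a smaller difference in the same direction. Its GFP arrays read 5.34, 4.75 and 5.27, its Luc arrays 5.69, 5.78 and 5.15. With Jak2-10 it read 4.68, 4.41 and 4.72, and with Jak2-9 4.28, 4.42 and 4.68. Each knockdown array was lower than each control array, by a narrow margin against GFP replicate 2, and the 2 hairpins overlapped each other as the 2 controls did. Knockdown minus control was -0.80 (SE 0.13), or 57.4% of control (47.3% to 69.7%, again with no allowance for the choice of the gene). Jak2-10 minus Jak2-9 was 0.15 (SE 0.18, adjusted p = 0.785; 0.06 without Jak2-9 replicate 1) and Luc minus GFP 0.42 (SE 0.18, adjusted p = 1).

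CROCCP2 is annotated as a pseudogene copy of CROCC, the gene of rootletin, a fibre protein of the linker that holds the centrioles together and of the ciliary rootlet. On its probe set, 211038_s_at, GFP arrays read 8.90, 8.84 and 8.77 and Luc arrays 9.10, 9.07 and 9.08. Jak2-9 arrays read 7.85, 7.95 and 8.21, and Jak2-10 arrays 8.29, 8.19 and 7.79. Every knockdown array lay below every control array, while the 2 hairpins overlapped. Knockdown minus control was -0.91 (SE 0.09), or 53.1% of control (46.3% to 60.8%), ranking 131 of 22292; Jak2-9 stood at 51.5% and Jak2-10 at 54.7%. As for CEP152, these values chose the member, and the interval makes no allowance for that choice. Jak2-10 minus Jak2-9 was 0.09 (SE 0.13, adjusted p = 0.826; 0.01 without Jak2-9 replicate 1), and Luc exceeded GFP by 0.25 (SE 0.13, adjusted p = 1), with all 3 Luc arrays above all 3 GFP arrays. CROCC itself gave -0.13 (SE 0.08, adjusted p = 0.447) on 206274_s_at and -0.07 (SE 0.11, adjusted p = 0.796) on 216419_at. CROCC and CROCCP2 are near copies, so which transcripts each probe set reads was not settled here.

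**Figure D1:**
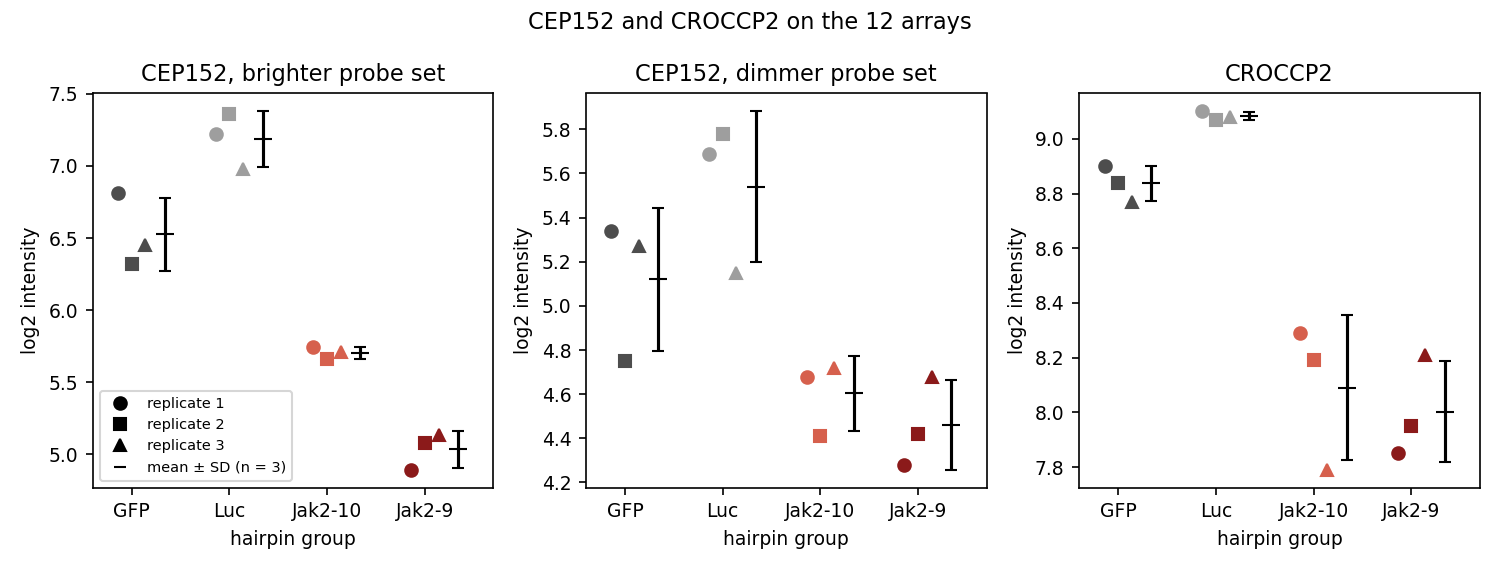
Log2 intensity (y axis) of the 2 CEP152 probe sets and the CROCCP2 probe set on each of the 12 arrays, by hairpin group (x axis), with 1 point per array and the mean ± SD of 3 arrays beside it. On the brighter CEP152 probe set the 4 groups separate, from Luc at 6.98 to 7.36 down to Jak2-9 at 4.89 to 5.13; on the other 2 panels the hairpins overlap below both controls.

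Without the Jak2-9 replicate 1 array, the differences of CEP152 (215170_s_at) and CROCCP2 were -1.45 and -0.88. The array's control probe set for Alu repeats, which lie largely in introns, moved the same way: it read 14.61 ± 0.07 (SD) on the 6 control arrays and 14.06 ± 0.10 on the 6 knockdown arrays, without overlap. Its part in any result here was not tested.

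The remaining 29 measured genes, with 56 probe sets, were tested over the whole array. Knockdown versus control called none of the 56 (limma, Benjamini-Hochberg over 22292 probe sets), with 18 at an unadjusted p under 0.05; over the array 705 probe sets (3.16%) were called, 564 lower and 141 higher, and 3571 (16%) had an unadjusted p under 0.05. Differences below 0 were found for 46 of the 56 (82.1%), with a median of -0.15, against 39.6% of all probe sets and a median of 0.03. Without Jak2-9 replicate 1, 45 were below 0 with a median of -0.09 and 15 at an unadjusted limma p under 0.05, so the size of the median rests in part on that array. The lowest adjusted p was 0.0996, for PCNT. The knockdown arrays, all 6, were lower than each of the 6 control arrays for 3 of the 56 (5.36%: PLK4 204886_at, PCM1 202174_s_at and CNTRL), against 2.14% of all probe sets.

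**Figure D2:**
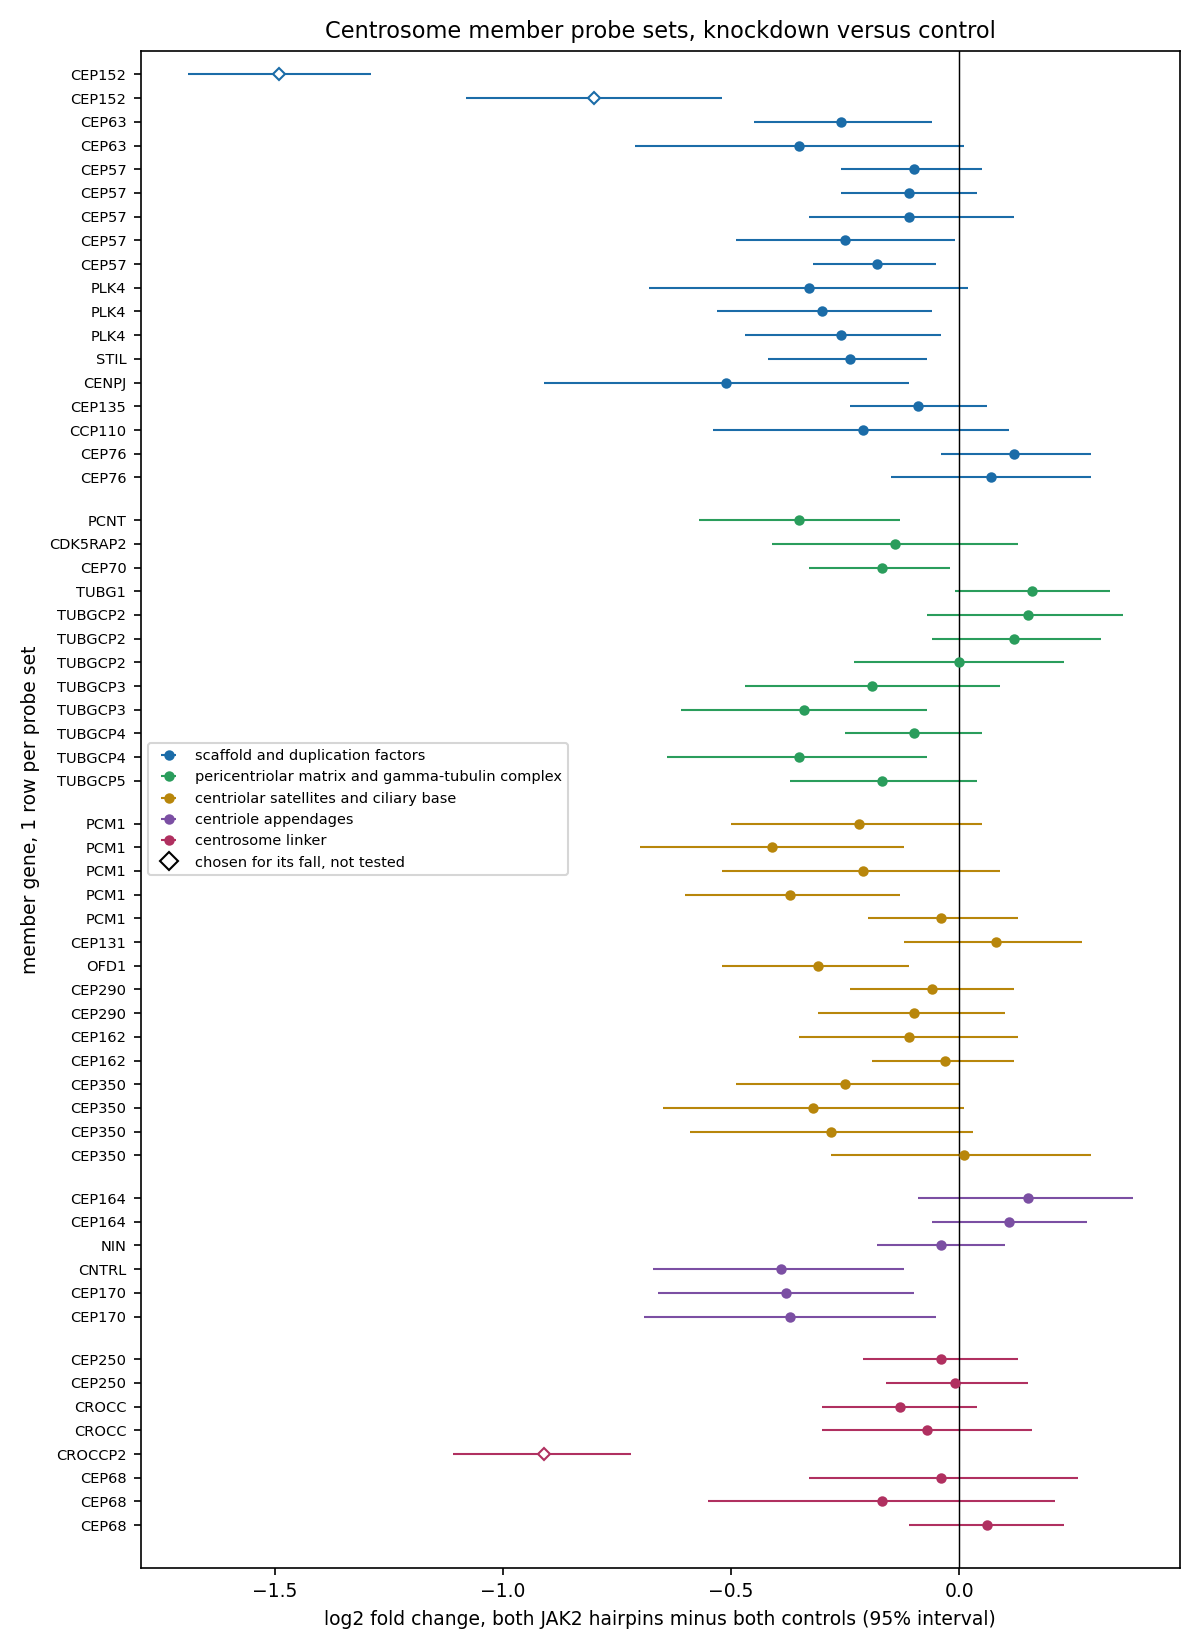
Log2 fold change of both JAK2 hairpins minus both controls (x axis) for each of the 59 probe sets of the members (y axis). Bars are 95% intervals and colours mark the role. Open diamonds are CEP152 and CROCCP2, chosen for their fall, and their intervals make no allowance for that choice. The filled points lie between -0.51 (CENPJ) and 0.16 (TUBG1), 46 of 56 below 0, and the 3 diamonds at -1.49, -0.91 and -0.80.

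Among the scaffold and duplication factors, 14 of 16 probe sets were below 0 in knockdown versus control, with a median of -0.23, 7 at an unadjusted p under 0.05 and none called; without Jak2-9 replicate 1 the median was -0.14. CEP63, which binds CEP152 in the scaffold, read 9.08, 8.86 and 8.95 with GFP, 8.83, 9.06 and 8.99 with Luc, 8.32, 8.67 and 8.76 with Jak2-9 and 8.96, 8.88 and 8.65 with Jak2-10 on 219242_at. All 3 Jak2-9 arrays lay below the controls and the Jak2-10 arrays overlapped them; knockdown minus control was -0.26 (SE 0.09, adjusted p = 0.177). The other CEP63 probe set gave -0.35 (SE 0.17, adjusted p = 0.329), but -0.15 without Jak2-9 replicate 1. CEP57, which joins CEP63 and CEP152 in the scaffold, had 5 probe sets between -0.25 and -0.10, with adjusted p from 0.171 to 0.643; without that array 209862_s_at moved from -0.11 to -0.02.

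PLK4, the kinase that starts centriole duplication, gave -0.33 (SE 0.16), -0.30 (SE 0.11) and -0.26 (SE 0.10) on its 3 probe sets, with adjusted p of 0.346, 0.198 and 0.231. These were -0.14, -0.21 and -0.16 without Jak2-9 replicate 1. On the middle one, 204886_at, controls read 7.37, 7.27 and 7.22 (GFP) and 7.34, 7.37 and 7.25 (Luc), Jak2-9 6.63, 7.12 and 7.18, and Jak2-10 7.21, 7.21 and 6.70. The groups did not overlap, but the gap between the lowest control and the highest knockdown array was within the spread of either group. STIL, which carries the PLK4 signal to the new centriole, gave -0.24 (SE 0.08, adjusted p = 0.165); it was at 80% of control with Jak2-10 (adjusted p = 0.274, the lowest of any tested member for that hairpin) and at 89.1% with Jak2-9 (adjusted p = 0.357). CEP135, a part of the centriole's cartwheel, gave -0.09 (adjusted p = 0.582). CCP110, which caps the growing end, gave -0.21 (SE 0.15, adjusted p = 0.52), and -0.04 without Jak2-9 replicate 1. CENPJ, described with Jak2-9 further on, gave -0.51 (SE 0.19, adjusted p = 0.187) with that array and -0.29 (adjusted p = 0.064) without it. CEP76, which limits repeated duplication, gave 0.12 and 0.07 (adjusted p = 0.467 and 0.774).

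In the pericentriolar matrix and gamma-tubulin complex, 9 of 12 probe sets were below 0, with a median of -0.15 and none called; without Jak2-9 replicate 1 it was 8 of 12, with a median of -0.06. PCNT, the pericentrin scaffold, read 9.66, 9.49 and 9.68 with GFP and 9.66, 9.75 and 9.78 with Luc. It read 8.85, 9.54 and 9.40 with Jak2-9 and 9.45, 9.42 and 9.27 with Jak2-10. The Jak2-10 arrays lay below all controls, and 1 Jak2-9 array overlapped GFP. The difference was -0.35 (SE 0.10, 78.5% of control), and PCNT passed the threshold in knockdown versus control without Jak2-9 replicate 2 (-0.42, adjusted p = 0.0303). CDK5RAP2, which ties gamma-tubulin complexes to the matrix, gave -0.14 (SE 0.13, adjusted p = 0.629; -0.06 without Jak2-9 replicate 1), and CEP70, a partner of gamma-tubulin, -0.17 (SE 0.07, adjusted p = 0.251).

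The gamma-tubulin complex itself was mixed. TUBG1, gamma-tubulin, gave 0.16 (SE 0.08, adjusted p = 0.343), the highest value of any member. The 3 probe sets of TUBGCP2, a core partner in the complex, gave 0.15, 0.12 and -0.00, with adjusted p of 0.509, 0.504 and 0.992. The other ring subunits gave -0.19 and -0.34 for TUBGCP3 (adjusted p = 0.512 and 0.191), -0.10 and -0.35 for TUBGCP4 (0.498 and 0.201) and -0.17 for TUBGCP5 (0.411). Leaving out Jak2-9 replicate 1, TUBG1 gave 0.10, the first and last TUBGCP2 probe sets 0.04 and 0.01, the TUBGCP3 probe sets -0.06 and -0.21 and the first TUBGCP4 probe set -0.05. None of these passed, and the 2 probe sets of TUBGCP4 differed from each other by more than the SE of either (0.07 and 0.13).

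For the centriolar satellites and the ciliary base, 13 of 15 probe sets were below 0, with a median of -0.21 and none called; without Jak2-9 replicate 1 the median was -0.12. PCM1, the protein that builds the satellites, had 5 probe sets, at -0.22, -0.41, -0.21, -0.37 and -0.04. Without that array they were at -0.09, -0.26, -0.07, -0.27 and -0.03. On 202174_s_at its GFP arrays read 9.92, 9.89 and 9.90, Luc 9.95, 10.15 and 10.01, Jak2-9 8.77, 9.61 and 9.78, and Jak2-10 9.80, 9.76 and 9.63. All knockdown arrays were below all controls, Jak2-9 replicate 1 by the most, and the difference was -0.41 (SE 0.13, adjusted p = 0.143). Without Jak2-9 replicate 1 it was -0.26 with an adjusted p of 0.0453, a call, and without replicate 3 of that group -0.51 with an adjusted p of 0.0325. The probe set with the smallest difference, 209996_x_at, was also the dimmest of the 5. OFD1, a satellite and centriole protein, gave -0.31 (SE 0.10, adjusted p = 0.118). CEP131 gave 0.08, CEP290, of the transition zone, -0.06 and -0.10, and CEP162, of the axoneme base, -0.11 and -0.03, with adjusted p from 0.623 to 0.849; without Jak2-9 replicate 1, CEP131 gave 0.02 and the first CEP290 probe set -0.00. CEP350, a centriole and microtubule protein, had probe sets at -0.25, -0.32, -0.28 and 0.01, with adjusted p of 0.309, 0.32, 0.363 and 0.986. They were at -0.13, -0.15, -0.19 and -0.03 without Jak2-9 replicate 1, the last with the opposite sign.

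Of the centriole appendage genes, 4 of 6 probe sets were below 0, with a median of -0.20, or -0.12 without Jak2-9 replicate 1. CNTRL, centriolin of the subdistal appendages, gave -0.39 (SE 0.13, adjusted p = 0.15), and CEP170, of the same structures, -0.38 and -0.37 (adjusted p = 0.17 and 0.23). Without that array the values were -0.25 for CNTRL and -0.25 and -0.20 for CEP170. NIN, ninein, gave -0.04 (adjusted p = 0.816). CEP164, which docks the mother centriole at the membrane for cilium growth, gave 0.15 and 0.11 (adjusted p = 0.538 and 0.523; 0.08 and 0.08 without Jak2-9 replicate 1). In the centrosome linker without CROCCP2, 6 of 7 probe sets were below 0 but the median was -0.04 and none had an unadjusted limma p under 0.05. CEP250, the anchor of the linker, gave -0.04 and -0.01, and CEP68, a linker protein, -0.04, -0.17 and 0.06. With Jak2-9 replicate 1 left out, 5 of the 7 were below 0 with a median of -0.01, the brighter CEP250 probe set gave -0.01, and CEP68 gave 0.11, -0.02 and 0.01, the first of them with the opposite sign.

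With Jak2-9 alone, 3 of the 56 probe sets fell and none rose (5.36%), against 4.31% called over the array (588 lower, 372 higher), a share near the background. Unadjusted limma p was under 0.05 for 26 (46.4%), against 22.3% of all probe sets, and the median was -0.22. Without Jak2-9 replicate 1 it was under 0.05 for 12 of 56, a larger share than the 12.6% of all, and the median was -0.12. CENPJ, which sets centriole length, fell to 53.7% of control (-0.90, SE 0.23, adjusted p = 0.0406). Its GFP arrays read 6.87, 6.83 and 6.53, Luc 6.56, 6.68 and 6.76, Jak2-10 6.68, 6.63 and 6.43, and Jak2-9 4.93, 6.31 and 6.19. The 3 Jak2-9 arrays were the 3 lowest of the 12, replicate 1 far below the others. PCM1 209997_x_at fell to 67.1% (-0.58, SE 0.13, adjusted p = 0.0277), from 6.89 to 7.38 on control arrays to 6.14, 6.61 and 6.80. CNTRL fell to 65.9% (-0.60, SE 0.16, adjusted p = 0.0489), from 7.11 to 7.40 on control arrays to 6.04, 6.91 and 6.87. In both, all 3 Jak2-9 arrays lay below all controls and replicate 1 was the lowest of the 12.

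These 3 calls were close to the threshold and changed with single arrays. Without Jak2-9 replicate 1, CENPJ alone was called (-0.46, SE 0.11, 72.9%, adjusted p = 0.0355), and PCM1 209997_x_at gave -0.39 (adjusted p = 0.107) and CNTRL -0.32 (adjusted p = 0.137). Without Jak2-9 replicate 2 there were 9 calls and without replicate 3 there were 13, all lower. Without GFP replicate 1, Luc replicate 1 or Luc replicate 2 there were 0, and CENPJ had adjusted p-values of 0.0866, 0.0686 and 0.0867. Leaving out GFP replicate 2, Luc replicate 3 or any 1 of the 3 Jak2-10 arrays left 1 call, PCM1 209997_x_at, and leaving out GFP replicate 3 gave 2 other calls, TUBGCP4 213266_at (-0.63, adjusted p = 0.0263) and CEP350 213956_at (-0.67, adjusted p = 0.0131). Over the 12 leave-outs CENPJ lost its call in 9, PCM1 in 5 and CNTRL in 10.

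**Figure D3:**
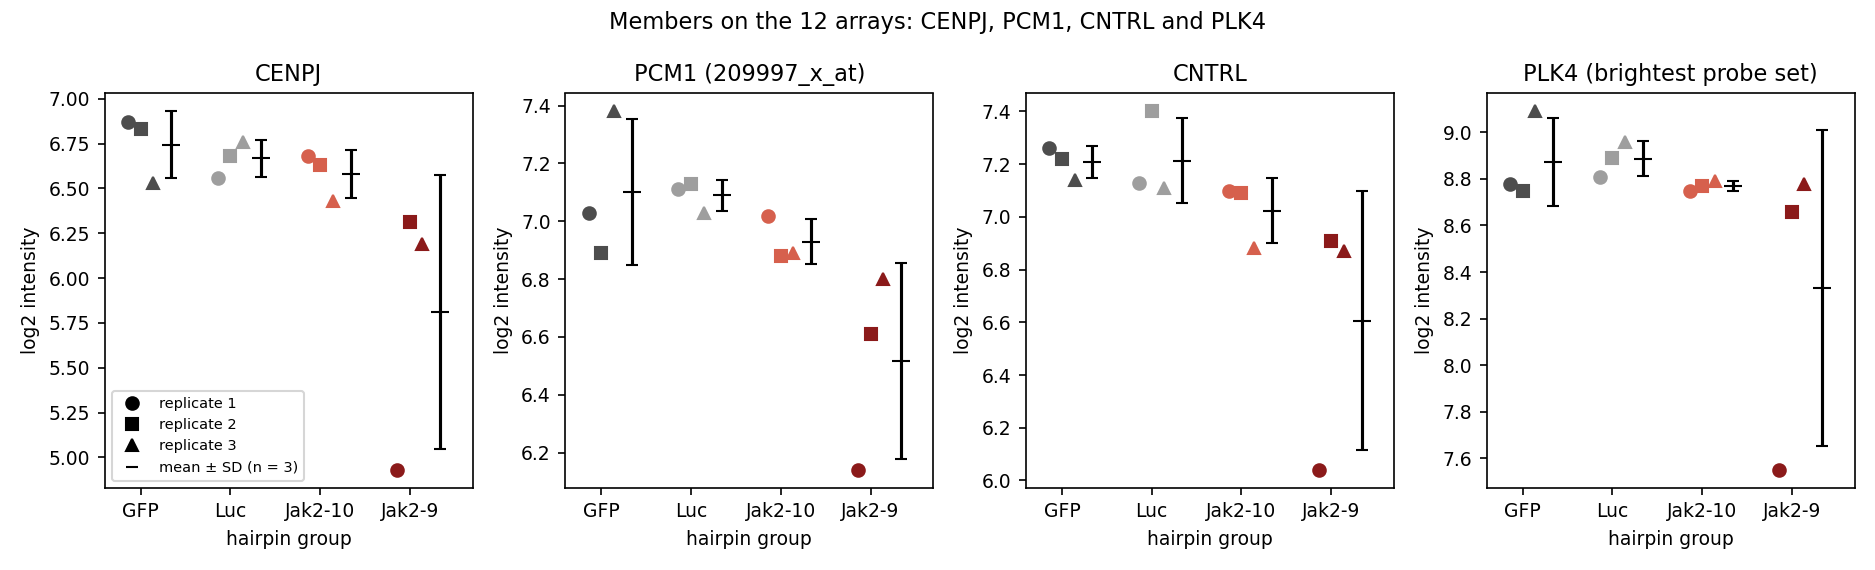
Log2 intensity (y axis) of CENPJ, PCM1 (209997_x_at), CNTRL and the brightest PLK4 probe set on each array, by hairpin group (x axis), with the mean ± SD of 3 arrays. Jak2-9 replicate 1 is the lowest point of each panel, at 4.93, 6.14, 6.04 and 7.55, and the other 2 Jak2-9 arrays lie nearer the controls.

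With Jak2-10 alone, none of the 56 was called (limma), 3 had an unadjusted p under 0.05 (STIL, PCNT and CROCC 206274_s_at), and the median was -0.07. Jak2-9 arrays share in the estimate of the spread. Without Jak2-9 replicate 1, 12 of the 56 had an unadjusted limma p under 0.05, a larger share than the 11.2% of all probe sets. With only the arrays compared, 10 of the 56 did, a larger share than the 10.9% of all. None was called in either. Over the array, 308 probe sets (1.38%) were called and 1587 had an unadjusted p under 0.05. Below 0 were 43 of 56 (76.8%), as with Jak2-9, against 43.7% of all probe sets with Jak2-10 and 39.9% with Jak2-9. This count with Jak2-10 moved with single arrays. Without Jak2-10 replicate 3 it was 35, with a median of -0.03, against 36.4% of all probe sets and a median of 0.04. None of the 56 then had an unadjusted limma p under 0.05. Without GFP replicate 1 it was 36, against 43.6% of all, and the other leave-outs gave 41 to 45. With all arrays, CENPJ was at 91.8% of control (adjusted p = 0.998), PCM1 209997_x_at at 89.4% (0.961) and CNTRL at 87.8% (0.965). The knockdown groups share their controls, so each is given by its own values. The difference between hairpins was tested directly over all 59 probe sets: none was called, 10 had an unadjusted limma p under 0.05, and 45 were higher with Jak2-10, with a median of 0.14. Over the array 8.59% of probe sets had an unadjusted limma p under 0.05, 45% were higher with Jak2-10 and the median was -0.02. CENPJ was higher by 0.77 with Jak2-10 than with Jak2-9 (SE 0.26, interval 0.21 to 1.34, adjusted p = 0.571), PCM1 209997_x_at by 0.41 (interval 0.08 to 0.75, 0.571) and CNTRL by 0.41 (interval 0.02 to 0.81, 0.571). These were 0.33, 0.23 and 0.13 without Jak2-9 replicate 1 (adjusted p = 0.968 for each). The median of the 59 was then 0.03. Of the 59, 37 were higher (44.6% of all probe sets were) and 4 of the 59 had an unadjusted limma p under 0.05 (4.1% of all). Between the controls, none of the 59 was called and 2 had an unadjusted limma p under 0.05, both of CEP152.

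The members read low on Jak2-9 replicate 1. This array held the lowest of the 12 values for 34 of the 59 probe sets (57.6%), against 20.6% of all probe sets, and the next highest count was 8 (13.6%), on Jak2-10 replicate 3. On Jak2-9 replicate 1, 6 member probe sets lay more than 2-fold below the average of its 2 companions. The difference was -1.32 for CENPJ, -1.19 for CEP63 222151_s_at, -1.17 for PLK4 204887_s_at, -1.02 for CCP110 and for CEP350 204373_s_at, and -1.01 for CEP170 207719_x_at. No other array had a member at that distance. The median deviation of members from the other arrays of the group was -0.24 on it, against 0.05 for all probe sets. The 3' minus 5' difference of the GAPDH control probe sets was 0.09 on this array and between -0.13 and -0.00 on the other 11. That of ACTB was 0.42, against 0.13 and 0.15 on the other Jak2-9 arrays and up to 0.38 on GFP arrays. Such differences follow RNA length, and their part in the members' values was not tested.

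**Figure D4:**
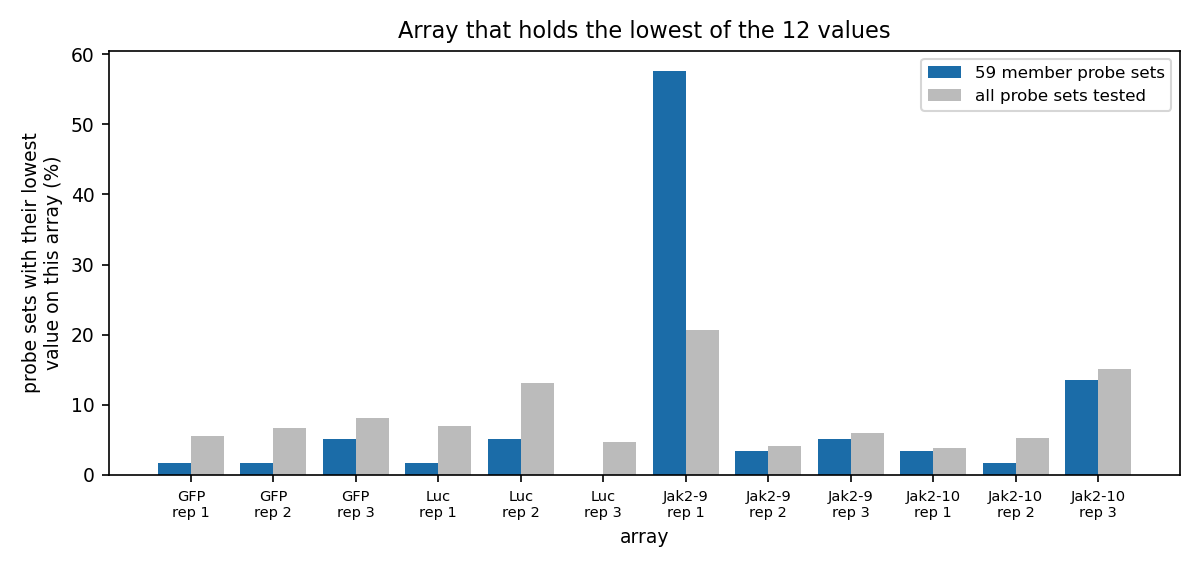
Share of probe sets (y axis, percent) that have their lowest of 12 values on each array (x axis), for the 59 probe sets of the members and for all 22292 tested. Jak2-9 replicate 1 holds 57.6% of the member probe sets and 20.6% of all.

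Other genes of the centrosome, cilium and mitosis were read from lists written from background knowledge, with earlier results of these data known. Of 61 further centrosome genes, 37 were measured with 65 probe sets: 3 fell and 0 rose in knockdown versus control (4.62%, against 3.16% of all), with a median of -0.08. They were ALMS1, a centriole and ciliary base protein (214707_x_at, -0.76, adjusted p = 0.000491), HAUS2, of the augmin complex that branches spindle microtubules (220071_x_at, -0.70, adjusted p = 0.000773), and MZT2B, a small gamma-tubulin complex protein (220720_x_at, -0.80, adjusted p = 0.00524). ALMS1 214707_x_at read 5.63 to 6.18 on control arrays and 4.91 to 5.28 on knockdown arrays. Its other 2 probe sets gave -0.25 (adjusted p = 0.489) and -0.17 (adjusted p = 0.526). The 2 brighter probe sets of MZT2B gave 0.24 and 0.22 (adjusted p = 0.174 and 0.148), the opposite sign to the called one, whose call was lost against GFP alone (adjusted p = 0.0615).

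Of 59 cilium and RFX genes, 43 were measured with 63 probe sets, and 1 fell (1.59%), with a median of 0.01. It was RFX3, a transcription factor of ciliary genes, on 217671_at, which read 6.21 to 7.35 on control arrays, 5.25 to 5.45 with Jak2-10 and 4.49 to 4.95 with Jak2-9, a difference of -1.86 (SE 0.13, adjusted p = 1.28e-06). Its other probe set, 207234_at, gave -0.10 (adjusted p = 0.517). Of 40 mitotic genes, 39 were measured with 70 probe sets: 2 fell and 0 rose (2.86%), with a median of -0.01. These were the dim BUB1 probe set 215508_at (-0.75, adjusted p = 0.00116) and the dim SMC4 probe set 215623_x_at (-0.59, adjusted p = 0.00526). The brightest probe sets of the same genes, a checkpoint kinase and a condensin subunit, gave -0.02 (adjusted p = 0.927) and -0.19 (adjusted p = 0.34). The BUB1 call was lost against GFP alone (adjusted p = 0.15) and the SMC4 call against Luc alone (adjusted p = 0.0537).

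With Jak2-9, 5 of the 70 mitotic probe sets were called (7.14%, against 4.31% of all), 2 lower and 3 higher. The lower ones were again SMC4 215623_x_at (-0.70, adjusted p = 0.00734) and BUB1 215508_at (-0.66, adjusted p = 0.0167), the latter lost against GFP alone (adjusted p = 0.24). The probe sets that rose were those of AURKB (0.47, adjusted p = 0.0283), BIRC5 202094_at (0.35, adjusted p = 0.0341) and PLK1 (0.45, adjusted p = 0.0348), all kinases or partners of chromosome segregation. The other BIRC5 probe sets were not called. With Jak2-9, 210334_x_at read 9.04, 9.10 and 8.99 against a control mean of 9.00, and 202095_s_at 10.62, 10.43 and 10.32 against 10.23. None of these 3 higher calls held without Jak2-9 replicate 1 (adjusted p = 0.12, 0.14 and 0.118), and they were lost in 8, 11 and 13 of the 22 alternatives run on probe sets, among them single control arrays left out. In the same comparison 1 of the 65 further centrosome probe sets rose and 4 fell (7.69%). MZT2B 213166_x_at rose (0.34, adjusted p = 0.0485), and NEK2 211080_s_at, a kinase that dissolves the linker, fell (-0.50, adjusted p = 0.0339). Without Jak2-9 replicate 1 the adjusted p of these calls was 0.211 and 0.136, and they were lost in 16 and 12 of the 22 alternatives. The other falls were ALMS1 214707_x_at (-0.84, adjusted p = 0.00136), HAUS2 220071_x_at (-0.82, adjusted p = 0.00146) and MZT2B 220720_x_at (-0.89, adjusted p = 0.0112). MZT2B was therefore called in both directions, on different probe sets. Its fall was lost in 1 of the 22 alternatives, against GFP alone (adjusted p = 0.0624).

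In 5 of these 6 genes with a call in knockdown versus control, other probe sets of the gene were not called, and HAUS2 had 1 probe set only. The kind of probe set differed in how often it was called lower. By the array's own naming, 4.45% of probe sets ending in x_at fell, whose probes can match other transcripts, against 1.66% of those ending in s_at and 2.73% of the rest. By mean brightness, 5.17% fell in the middle one of 3 equal classes, 1.96% in the brightest class and 0.458% in the dimmest. The members hold 6 x_at and 35 s_at probe sets and 18 of other kinds, with 31 in the middle class, 24 in the brightest and 4 in the dimmest. The part of probe set design in the values of CEP152 or any other gene was not tested.

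**Figure D5:**
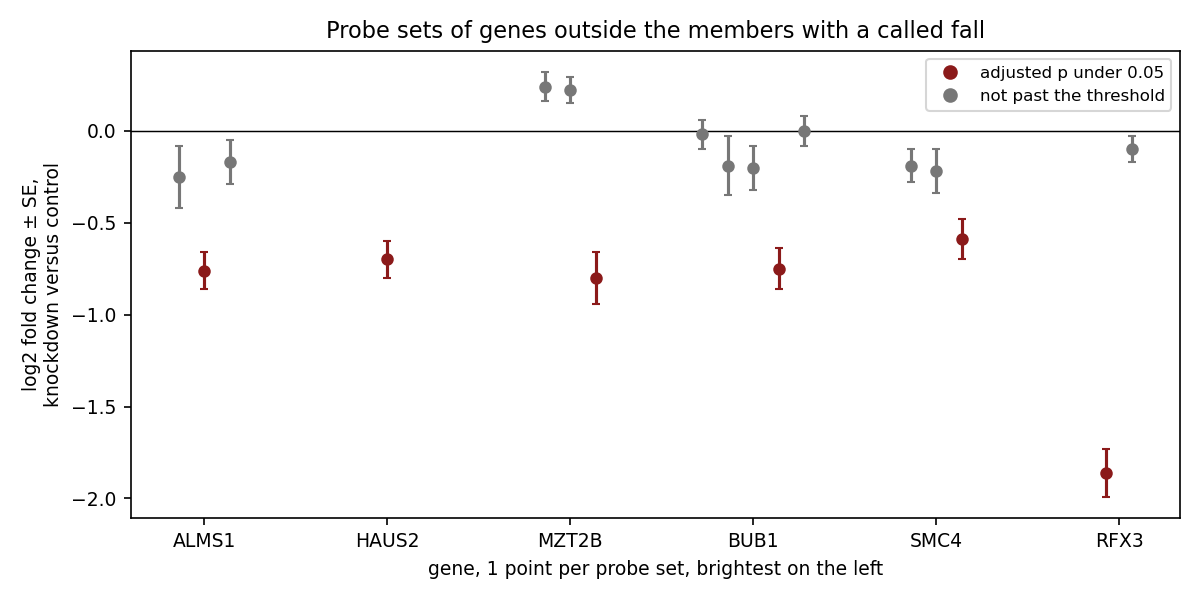
Log2 fold change ± SE of knockdown versus control (y axis) for every probe set of ALMS1, HAUS2, MZT2B, BUB1, SMC4 and RFX3 (x axis), brightest on the left within a gene; red points have an adjusted p under 0.05. Each gene has 1 red point, between -1.86 and -0.59, and the grey probe sets of the same genes lie between -0.25 and 0.24.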

How the data were processed

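The authors deposited 1 table of linear intensity per probe set and array, made with RMA per the submitters' processing notes (version not given in the sources used here); intensities ran from 11.2 to 36233.5. RMA normalizes arrays to each other and compresses differences of dim probe sets. The log2 was taken with no pseudocount. Of 22930 rows, 524 array controls and 114 control rows with mouse names were left out; 19303 of the 22292 tested had 1 symbol, 125 several and 2864 none here. Precision is limited by the 3 arrays per group.

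Group means of 4 groups were fitted to all 12 arrays (limma 3.58.1, R 4.3.3, lmFit and eBayes), with Benjamini-Hochberg adjustment over all probe sets and a threshold of 0.05; the fit was tested on simulated data. Control is the mean of the GFP and Luc groups, knockdown the mean of both JAK2 hairpin groups. The members, the lists (other centrosome genes, cilium and RFX genes, mitotic genes) and the motifs were chosen with earlier results of these data known. All measured members were named, and from each other list up to 4 genes past the threshold with the largest change; genes called with Jak2-9 alone were named after their values were seen. Figures used matplotlib 3.10.9 in Python 3.11.15. As alternatives, the fit was repeated with quantile normalization, with arrays centred on their medians, with a replicate block, without the 30% of probe sets that were dimmest, with a pseudocount of 16, the brightest or the mean probe set per gene, an intensity trend, array weights, only the arrays compared, single controls, and each array left out. The labels do not call same-numbered arrays paired, so the main fit did not treat them as pairs. Correlations between the deviations of same-numbered arrays lay between -0.143 and 0.191, which does not settle whether they are pairs.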

Additional observations from a re-analysis of the deposited data

How the results depend on the processing

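No called member value and neither chosen gene reversed direction under any alternative run. For CEP152, CROCCP2 and the 3 calls with Jak2-9, every array of the hairpins compared lay below every control array. Leaving out arrays or using a single control could therefore not reverse them, and those runs do not test their direction. Small values did change sign: in knockdown versus control 13 of the 56 in at least 1 of 21 alternatives, none over 0.17 in size, 3 of them without Jak2-9 replicate 1. With Jak2-9 it was 7 of 56, up to 0.24 in size. There, without that array, CEP68 gave 0.18 and 0.05 in place of -0.12 and -0.24, and TUBGCP3 203690_at 0.02 in place of -0.22. With Jak2-10 it was 29 of 56, up to 0.21; none of all these had an unadjusted limma p under 0.05. The count of members called in knockdown versus control was 0 under all but array weights (1, PCM1 202174_s_at), and 0 to 2 with 1 array left out. With Jak2-9 the count was 3 and became 5 with quantile normalization, 1 with a pseudocount of 16, 1 with the brightest probe set per gene, 0 with only the arrays compared, 0 against GFP alone and 0 against Luc alone; with 1 array left out it ran from 0 to 13. Where fewer arrays enter a fit, fewer carry the spread; otherwise the cause was not tested. The counts for Jak2-10, Jak2-10 minus Jak2-9 and Luc minus GFP were 0 in every setting. With the replicate block, Jak2-9 gave 4 calls, adding CEP170 212746_s_at (limma, adjusted p = 0.0416), and the other comparisons kept 0. Deviations of same-numbered arrays correlated between -0.143 and 0.191. Among arrays of other groups, 7 of 12 arrays correlated best with one of their own number. These values do not settle whether the numbers pair the arrays.

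The CEP152 difference on 215170_s_at was -1.20 with a pseudocount of 16, -1.14 as the mean of its probe sets, -1.16 against GFP alone and -1.82 against Luc alone, and -1.54 to -1.42 with 1 array left out; that of CROCCP2 was -0.97 to -0.84. Across scalings, members below 0 in knockdown versus control numbered 43 of 56 with median centring, against 30.1% of all probe sets. With quantile normalization they numbered 45, against 44.1% of all. In the main fit 39.6% of all probe sets were below 0. For Jak2-10, members below 0 numbered 35 with median centring, against 33.5% of all probe sets (43.7% in the main fit). The member median was then -0.04, against 0.05 for all probe sets. Over the array, array weights called 1210 probe sets and the brightest probe set per gene 218 genes. No detection calls were used, so dim probe sets may read background.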
